A study of Bos taurus with 12 samples.

Results

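Rumen papillae taken in the third week of a grain challenge were compared with papillae taken from the same Holstein dairy cows on forage, before the challenge began. The comparison used every array labelled week 3 (4 arrays, grain challenge) and every array labelled week 0 (4 arrays, high forage diet, the control), which are 8 of the 12 arrays of the series. The 4 cows are the same in both groups, so each difference was taken within a cow, as the week 3 value minus the week 0 value. All samples came from the ventral sac of the rumen, and each array held RNA of 1 cow at 1 week. The remaining 4 arrays, from week 1 of grain in the same cows, entered the estimate of the spread and are cited only beside the results. Diet and calendar week cannot be told apart, because no cows stayed on forage throughout.

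Papillae are the finger-like projections through which the rumen wall takes up the short chain fatty acids made by microbial fermentation. Their surface is a stratified squamous epithelium, whose basal cells sit on a basement membrane and whose upper cells are held together by desmosomes and slowly cornify. Below it lies connective tissue with blood vessels and immune cells. Starch from grain ferments faster than forage, so a change to grain raises acid in the rumen and exposes this epithelium to more acid and to more bacterial products such as lipopolysaccharide.

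The values are log2 expression values centred for each probe set, with its median over the 12 arrays at 0. Arrays can thus be compared, but no absolute level of a gene is held. For that reason the tissue label could not be checked by asking whether defining epithelial markers were present or absent, and levels of different genes cannot be ranked. In a bulk sample, fewer cells of a type and less RNA per cell cannot be told apart. Of 24016 probe sets tested, 13292 named 1 gene, and these covered 9155 genes. In the text below, array values run in the order of cows 1 to 4, and a mean difference is over 4 cows with the standard error (SE) of the model.

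Before the results, 3 arrays stood apart in their spiked hybridization controls, 18 probe sets that report RNA added in the laboratory. Their mean at week 0 was 0.49, 0.72, -0.25 and -0.09, high in cows 1 and 2, and at week 3 it was -0.06 to 0.05. The third such array was week 1 of cow 1, at 0.48. Within cows the week 3 minus week 0 difference of these controls was therefore -0.44, -0.78, 0.23 and 0.10. The mean over cows 3 and 4 alone, whose arrays are not among the 3, is given beside the main results.

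No probe set passed an adjusted p under 0.05 (0% of 24016; limma with the cow as a block, Benjamini-Hochberg adjustment, lowest adjusted p = 0.158). At an unadjusted p under 0.05 there were 1469 probe sets (6.12%), of which 944 were higher (3.93%) and 525 lower (2.19%) at week 3. Among these, 64.3% were higher, against 49.7% after quantile normalization of the arrays. Every gene below is therefore described by its values and not as a called change. Shares of all genes given below are those of the main analysis. The median difference over all probe sets was 0.019 there, 0.003 with centred arrays and 0.0005 with quantile normalization. List counts under an alternative are thus not to be read against the main shares. All gene lists were chosen with earlier results of these data known, so their counts are not independent evidence. The cows were alike only in part, since the within-cow differences of any pair of cows correlated across the 24016 probe sets at r = 0.220 to 0.322, where probe sets are not independent and share the arrays.

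The differences past 2-fold in all 4 cows were in a desmosomal cadherin, a vasoactive peptide and a group of neutrophil-attracting chemokines. Only 7 probe sets (0.0291%) differed by more than 2-fold in the same direction in each of the 4 cows, although 121 to 353 did so within single cows. Of the 7, DSG1 and EDN1 were lower at week 3, and CXCL8, CXCL5, CXCL2, BPIFA2A and 1 probe set without a gene name (1.92 ± 0.43) were higher.

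DSG1 encodes desmoglein 1, the adhesion protein of desmosomes in the upper layers of squamous epithelium. DSG1 read -0.28, 0.26, 2.20 and 2.04 at week 0 and -2.52, -1.56, -1.16 and 0.00 at week 3. Each cow was lower at week 3, and the groups overlapped only in that cow 4 at week 3 lay above cow 1 at week 0. The mean difference was -2.37 ± 0.35 (5.15-fold lower, limma adjusted p = 0.163), and it was -2.70 over cows 3 and 4. A second DSG1 probe set differed by -0.71 ± 0.30, with differences of 0.06, 0.01, -1.34 and -1.59, so the 2 probe sets shared a direction in cows 3 and 4 and not in cows 1 and 2. At week 1 the first probe set stood -0.65 from week 0. The week 1 differences here and below share the week 0 arrays with those of week 3.

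EDN1, the precursor of the vasoconstrictor endothelin 1, was 1.03, -1.26, 1.15 and 1.08 at week 0 and -0.45, -2.94, 0.05 and -0.05 at week 3. Cow 2 was far below the others at both weeks, and every cow was lower at week 3 than at its own week 0. The mean difference was -1.35 ± 0.21 (2.54-fold lower, limma adjusted p = 0.173), with -1.11 over cows 3 and 4 and -1.27 at week 1.

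CXCL5, CXCL8 and CXCL2 encode chemokines that draw neutrophils through the receptors CXCR1 and CXCR2. CXCL5 read -0.05, 0.02, -0.02 and -1.29 at week 0 and 1.39, 2.31, 1.68 and 0.36 at week 3, so that the groups did not overlap. Its mean difference was 1.77 ± 0.27 (3.41-fold higher, limma adjusted p = 0.163), with 1.67 over cows 3 and 4 and 0.06 at week 1.

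CXCL2 was -0.55, -0.10, 0.32 and -1.66 at week 0 and 1.05, 1.53, 1.89 and 0.10 at week 3. The 4 within-cow differences were close to one another, from 1.57 to 1.76, yet the mean of 1.64 ± 0.69 (3.11-fold) had an adjusted p of 0.806 in limma. The model's SE also takes in week 1, where CXCL2 read 0.55, -2.37, -1.49 and -0.19 and the cows parted. With the 8 arrays of weeks 0 and 3 alone, the adjusted p of CXCL2 in limma was 0.05004, the lowest of that fit. CXCL8 read -0.71, -0.37, 1.07 and -1.05 at week 0 and 0.57, 2.57, 2.93 and 0.66 at week 3. Its difference of 1.95 ± 0.84 (3.85-fold, adjusted p = 0.819 in limma) was above 1 in each cow, and its week 1 mean was -0.77 from week 0.

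BPIFA2A belongs to the family of BPI-fold proteins, secreted proteins of salivary and mucosal surfaces. BPIFA2A was -0.76, -2.05, -1.001 and -0.30 at week 0 and 0.27, 0.41, 0.53 and 1.62 at week 3, with no overlap. The mean difference was 1.74 ± 0.26 (3.33-fold higher, limma adjusted p = 0.163), and week 1 already stood 1.15 above week 0.

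**Figure D1:**
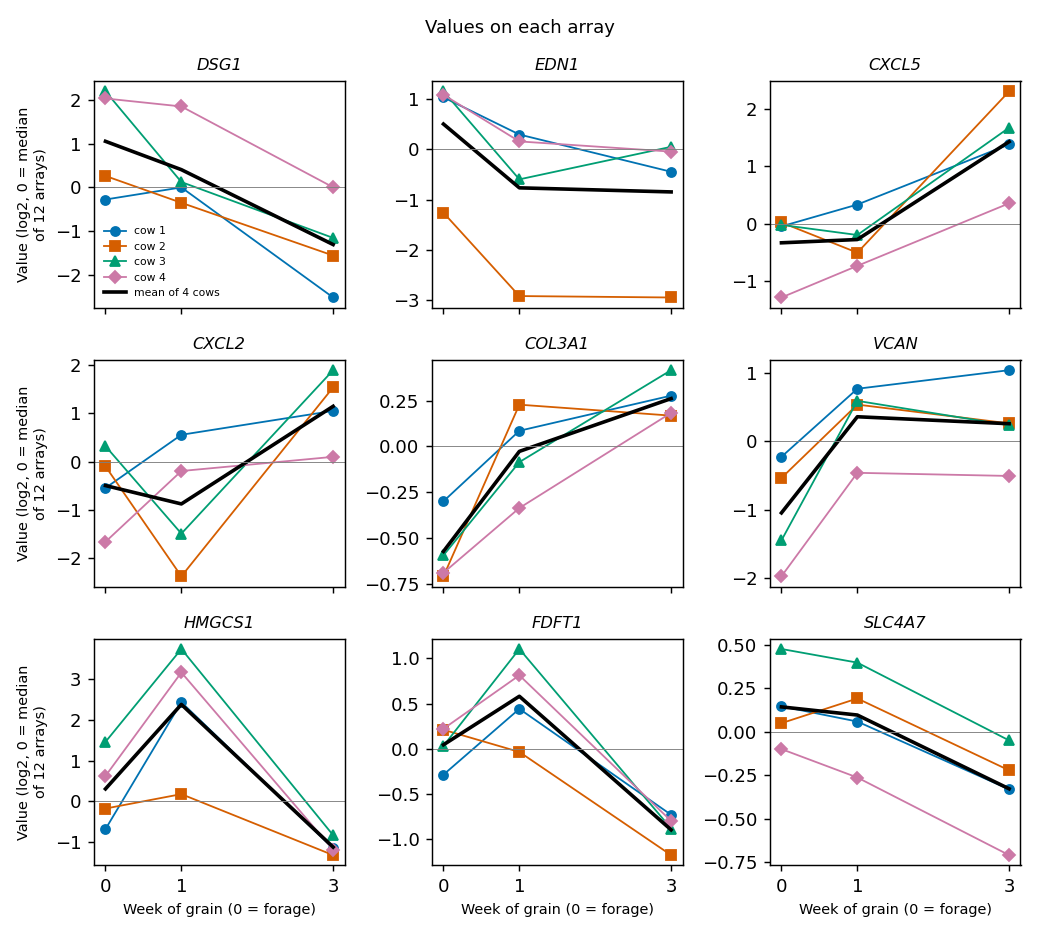
Value on each array (log2, 0 is the median of the 12 arrays) against week of grain for 9 genes, with a line per cow and the mean of 4 cows in black. CXCL5 and CXCL2 are higher at week 3 than at week 0 in each cow and not at week 1 on average, while HMGCS1 and FDFT1 have a higher mean at week 1 and a lower mean at week 3 than at week 0.

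Chemokines guide immune cells into tissue. Of 18 measured chemokine and chemokine receptor genes, 16 had a higher mean at week 3 and 2 a lower one, against 64.5% higher and 35.5% lower among all 9155 genes. Higher values in all 4 cows were found for 11 of the 18, against 28.1% of all genes, and none was lower in all 4 cows (6.34% of all genes). At an unadjusted p under 0.05, 3 (CXCL5, CXCL2 and CCL2) were higher and none lower, against 5.07% and 2.95% of all genes. The list's median difference was 0.11, beside 0.02 over all genes, and it was 0.18 without cow 2, 0.07 without cow 4 and 0.26 without the 3 arrays that stood apart. With each array centred on its own median, or with quantile normalization, 14 of the 18 were higher.

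GRO1, a CXCL1-type chemokine that is not among the 18, was 1.51, -0.14, -0.66 and -0.63 at week 0 and 2.74, 2.14, 4.24 and -0.40 at week 3. Cow 3 differed by 4.90 and cow 4 by only 0.22, which left a mean of 2.16 ± 0.75 (4.47-fold, limma adjusted p = 0.668), or 1.25 without cow 3. All 4 probe sets of GRO1 were higher, at 2.04 to 2.45. The sequences of these chemokines are close to one another, and how much signal their probe sets share was not tested.

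CCL2, which attracts monocytes, differed by 0.25, 0.54, 3.38 and 2.03 (mean 1.55 ± 0.55), so cows 3 and 4 carried most of it, and the mean was 0.94 without cow 3. CCL19, a chemokine for lymphocytes and dendritic cells, differed by 0.52 ± 0.23, or 0.25 without cow 3. Its week 0 value in cow 2 was 0.52, above the -0.08 to -0.02 of the other cows.

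Lipopolysaccharide is sensed at the cell surface by CD14 and TLR4, which signal to NF-kappaB. Of 17 genes for lipopolysaccharide and pattern recognition, 14 were higher and 3 lower (64.5% and 35.5% of all genes), with 3 higher at an unadjusted p under 0.05 (5.07% of all genes) and none lower. The median was 0.10, or 0.19 without cow 4, and 12 were higher with quantile normalization. CD14, the co-receptor that hands lipopolysaccharide to TLR4, was 0.16, -0.07, 0.07 and -0.72 at week 0 and 0.97, 1.28, 1.71 and -0.13 at week 3. Cow 4 was the lowest at both weeks, and the mean difference was 1.10 ± 0.34 (limma adjusted p = 0.619). TLR4 itself was higher in cows 1 to 3, by 0.65, 0.78 and 0.91, and level in cow 4, with a mean of 0.58 ± 0.18. NFKBIZ, a regulator of NF-kappaB target genes, differed by 0.39 ± 0.14 and TLR6, a partner of TLR2, by 0.14 ± 0.08 (0.07 without cow 3).

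Antimicrobial and acute phase proteins were close to 0 for most genes. Of 16 such genes, 13 were higher and 3 lower, against 64.5% and 35.5% of all genes, but 8 were higher and 8 lower with quantile normalization and 11 and 5 with centred arrays. In this list 2 genes, SAA3 and LAP, were higher at an unadjusted p under 0.05 (5.07% of all genes), and the median was 0.02. SAA3, a serum amyloid made in mucosa and mammary gland, differed by 1.44 ± 0.52, and was higher in each cow by 0.75 to 2.12. The beta-defensins LAP and TAP differed by 0.74 ± 0.28 and 0.77 ± 0.38. TAP had an unadjusted p of 0.0826 in limma, with cow differences of 0.95, 0.26, 0.13 and 1.73, and was 0.45 without cow 4.

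DEFB4A, another beta-defensin that is not among the 16 genes of that list, read 1.08, -1.99, -2.72 and 1.63 at week 0 and 2.22, -0.31, -1.32 and 2.63 at week 3. Cows 1 and 4 were far above cows 2 and 3 at both weeks, which makes the groups overlap, while the within-cow differences lay between 1.00 and 1.67. The mean was 1.30 ± 0.18 (2.47-fold, limma adjusted p = 0.163), whereas a second DEFB4A probe set differed by only 0.01. Beta-defensin genes are near-identical in parts, and the share of signal between their probe sets was not tested.

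Cytokine and complement genes showed smaller differences. Among 29 cytokines and receptors, 25 were higher and 4 lower (64.5% and 35.5% of all genes), or 20 and 9 with quantile normalization. At an unadjusted p under 0.05, 4 were higher and none lower (5.07% and 2.95% of all genes). The median was 0.06, and 0.04 without cow 3. IL33, an alarmin of barrier epithelia, differed by 0.80 ± 0.24, while its other probe sets stood at 0.00 and 0.09. IL1RAP, a chain of the interleukin 1 receptor, differed by 0.36 ± 0.10, with its other probe sets at -0.06 and 0.05. IL2RG, the common cytokine receptor chain, differed by 0.48 ± 0.13 and IL1RN, the antagonist of the interleukin 1 receptor, by 0.26 ± 0.07. Among 15 complement genes, 12 were higher and 3 lower (64.5% and 35.5% of all genes), with 2 and 0 at an unadjusted p under 0.05 (5.07% and 2.95%). The median was 0.14, but 0.36 without cow 1 and 0.03, with 9 higher and 6 lower, under quantile normalization. The classical pathway protease C1R differed by 0.42 ± 0.09, its partner C1S by 0.31 ± 0.14 (0.18 without cow 4) and the alternative pathway protease CFD by 0.72 ± 0.25. CFD was -0.08 in cow 1, and its mean was 0.41 without cow 3. C4A stood at -0.27 ± 0.12, with 0.05 in cow 3 and a mean of -0.16 without cow 2.

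The levels of immune cell markers were examined beside these genes. Of 14 markers of monocytes, macrophages and dendritic cells, 10 were higher and 4 lower, a split near the 64.5% and 35.5% of all genes. At an unadjusted p under 0.05 there were 2 and 0 (5.07% and 2.95% of all genes). The medians in the 4 cows lay between 0.02 and 0.11. The split was 7 to 7 with quantile normalization, and 13 to 1 without cow 1, with a median of 0.06 in the main analysis and 0.11 without cow 1 (0.04 without cow 3). CD14 is one of these markers as well, and AIF1, a macrophage calcium-binding protein, differed by 1.08 ± 0.22. CSF1R, the macrophage growth factor receptor, stood at 0.29 ± 0.15 (0.17 without cow 3) and TYROBP, a myeloid adaptor, at -0.45 ± 0.24 (-0.28 without cow 1). Of 21 lymphocyte and plasma cell markers, 18 were higher, and of 9 neutrophil and mast cell markers, 8, against 64.5% of all genes. Yet none of either list had an unadjusted p under 0.05 (5.07% of all genes higher and 2.95% lower). The medians of the 2 lists were 0.03 and 0.02. With quantile normalization 14 of the 21 and 4 of the 9 were higher, and with centred arrays 15 and 6. The 64.5% is the share of the main analysis and does not apply to these settings. Red blood cell markers (7 genes, 6 higher, or 4 with quantile normalization) had a median of 0.02. The part of immune cell content in the chemokine and antimicrobial results was not tested.

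Collagens are the main fibres of the connective tissue core of a papilla. All 18 measured genes for fibrillar collagens and collagen processing had a higher mean, 12 of them in all 4 cows, and 8 had an unadjusted p under 0.05, against 64.5%, 28.1% and 5.07% of all genes. In 9 of the 18 the week 3 arrays all lay above the week 0 arrays, against 2.95% of all genes. The median difference was 0.41, with 0.08, 0.55, 0.30 and 0.43 in the 4 cows and 0.44 over cows 3 and 4. With quantile normalization 16 were higher and 2 lower, and without cow 2, 17 and 1. The mean of all probe sets of each gene gave a lower median, 0.22.

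COL3A1, the chain of type III collagen, was -0.30, -0.71, -0.59 and -0.69 at week 0 and 0.28, 0.17, 0.42 and 0.18 at week 3. The groups did not overlap, and the mean difference was 0.83 ± 0.11 (1.78-fold, limma adjusted p = 0.158), with 0.94 over cows 3 and 4 and 0.54 at week 1. COL1A2, a chain of type I collagen, read -0.51, -0.78, -0.49 and -0.54 at week 0 and 0.24, 0.62, 1.08 and 0.41 at week 3, again with no overlap. Its mean difference was 1.17 ± 0.19 (2.25-fold, adjusted p = 0.201 in limma). COL1A1, the other type I chain, differed by 0.91 ± 0.17, while its second probe set differed by 0.03. COL15A1, a collagen of basement membrane zones, differed by 0.61 ± 0.09.

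Proteoglycans and matricellular proteins followed, with 21 of 25 genes higher and 4 lower, against 64.5% and 35.5% of all genes. Of these, 9 were higher and 1 lower at an unadjusted p under 0.05 (5.07% and 2.95% of all genes). The cow medians were 0.03, 0.04, 0.36 and 0.62. The list's median was 0.15, and it was 0.32 without cow 1, 0.36 without cow 2 and 0.39 without the 3 arrays that stood apart. VCAN, the large proteoglycan versican, was -0.23, -0.54, -1.45 and -1.97 at week 0 and 1.04, 0.26, 0.23 and -0.51 at week 3. The order of the cows was the same at both weeks, each moved up by 0.80 to 1.68, and the mean was 1.30 ± 0.17 (2.47-fold, limma adjusted p = 0.158). Week 1 already stood 1.40 above week 0. The other VCAN probe sets differed by 0.44 ± 0.18, with only 0.04 in cow 2, and by 1.13 ± 0.21.

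Among other matrix proteins, SPARC, which binds collagen, differed by 0.67 ± 0.12, THBS4, a thrombospondin, by 0.56 ± 0.08 and POSTN, periostin, by 0.69 ± 0.18 (0.46 without cow 3). Of 16 matrix proteases and inhibitors, 12 were higher and 4 lower (64.5% and 35.5% of all genes), or 10 and 6 with quantile normalization. At an unadjusted p under 0.05 there were 3 and 0 (5.07% and 2.95% of all genes), and the median was 0.04. The gelatinase MMP2 read -0.15, -0.10, -0.59 and -0.28 at week 0 and 0.08, 0.39, 0.08 and 0.24 at week 3, all above week 0, for a mean of 0.48 ± 0.07 (limma adjusted p = 0.167). PLAUR, the urokinase receptor, differed by 0.65 ± 0.22. TIMP2, an inhibitor of matrix metalloproteases, differed by 1.33 ± 0.36, while its other probe sets stood at -0.16 and 0.08.

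Of 11 fibroblast markers 9 were higher and 2 lower (64.5% and 35.5% of all genes). At an unadjusted p under 0.05 there were 4 and 0 (5.07% and 2.95% of all genes). The median of these markers was 0.15 (0.27 without cow 1 and 0.07 without cow 3). COL1A1, COL1A2 and COL3A1 are 3 of these markers, and the other 8 lay between -0.19 (DCN, the proteoglycan decorin, ± 0.10, or -0.07 without cow 1) and 0.31 (FAP, a fibroblast surface protease, ± 0.10). Of 21 endothelial and smooth muscle markers 12 were higher and 9 lower (64.5% and 35.5% of all genes). At an unadjusted p under 0.05, 1 was higher and 4 lower (5.07% and 2.95% of all genes). With centred or quantile-normalized arrays 9 of the 21 were higher and 12 lower. DES, the muscle intermediate filament desmin, was lower, at -0.97 ± 0.27 and CNN1, smooth muscle calponin, by -0.50 ± 0.14. The part of stromal cell content in the collagen result was not tested.

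CDH13, a cadherin without a transmembrane domain that is known from vessels, had the lowest p of the lower genes. It read 0.79, 0.53, 0.45 and 0.44 at week 0 and 0.10, -0.10, -0.28 and -0.53 at week 3, with no overlap and similar steps in the 4 cows. The mean difference was -0.75 ± 0.09 (limma adjusted p = 0.158).

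**Figure D2:**
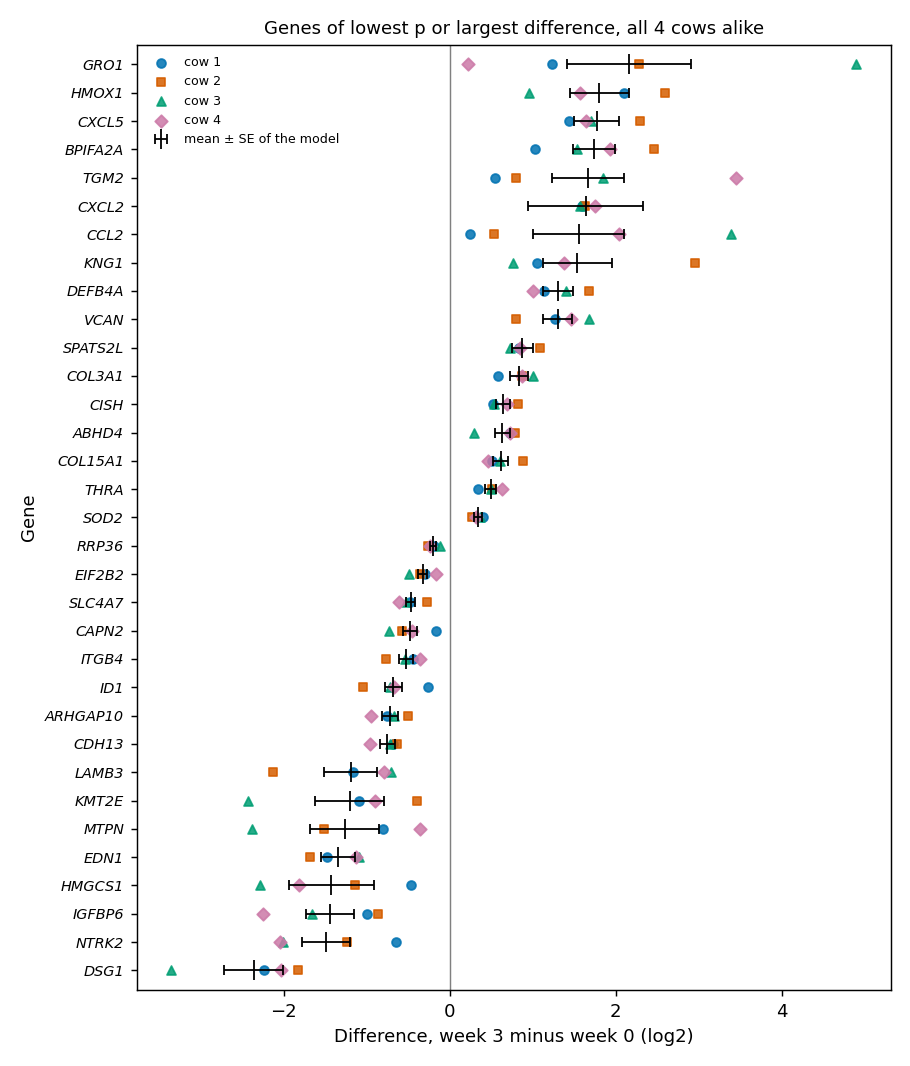
Within-cow difference, week 3 minus week 0 (log2), of the genes with the lowest p or the largest difference among those with the same direction in all 4 cows. Coloured points are the 4 cows, and black marks are the mean ± SE of the model. Genes such as COL3A1, CISH and SOD2 have small differences that are close among cows, while GRO1 and CCL2 spread widely.

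Hemidesmosomes anchor the basal cells of the epithelium to the basement membrane. Of 10 genes of the basal layer and hemidesmosome, 7 were lower and 3 higher, with 3 lower and none higher at an unadjusted p under 0.05, against 35.5% lower and 2.95% lower at that p among all genes. The cow medians were -0.10, -0.17, -0.11 and -0.12, all below 0, and without cow 2 the split was 6 lower and 4 higher. ITGB4, the integrin chain of hemidesmosomes, was 0.02, 0.17, 0.05 and 0.47 at week 0 and -0.42, -0.60, -0.49 and 0.11 at week 3. Each cow was lower, with a mean of -0.53 ± 0.08 (limma adjusted p = 0.167). LAMB3, a chain of the laminin that hemidesmosomes bind, read 1.18, 1.08, 0.40 and 0.78 at week 0 and 0.01, -1.05, -0.30 and -0.01 at week 3, without overlap. Its mean difference was -1.20 ± 0.32. COL17A1, the transmembrane collagen of the same structure, differed by -0.36 ± 0.09. The basal keratins KRT14 and KRT5 stood at -0.20 ± 0.09 and -0.15 ± 0.09, beyond an unadjusted p of 0.05. KRT14 was -0.12 without cow 2, and KRT5 was -0.24 without cow 2 and -0.08 without cow 4. A second KRT5 probe set stood at -0.15 ± 0.10. It had -0.44 in cow 2 and 0.04 in cow 4, where the first had 0.09 and -0.37.

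Desmosomal genes were lower in 8 of 9 cases, 3 of them at an unadjusted p under 0.05, against 35.5% and 2.95% of all genes. Without the 3 arrays that stood apart all 9 were lower, and without cow 3, 7 were. The median was -0.24, with -0.14, 0.01, -0.27 and -0.27 in the 4 cows. Next to DSG1, the plaque proteins PKP1 and PKP3 differed by -0.27 ± 0.06 and -0.24 ± 0.09, and DSC1, a desmocollin of the upper layers, by -0.59 ± 0.34. DSC1 was higher in cow 2, by 0.77, and its mean was -1.05 without cow 2 and -0.34 without cow 3, while its second probe set stood at -0.04. DSG3 was not analysed here.

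Of 14 genes of tight, adherens and gap junctions 8 were higher and 6 lower, against 64.5% and 35.5% of all genes. The median was 0.02 (-0.01 without cow 4). The split was 6 to 8 with quantile normalization and 11 to 3 without the 3 arrays. The only one with an unadjusted p under 0.05 (5.07% of all genes higher, 2.95% lower) was the claudin CLDN7. CLDN7 was higher by 0.41 ± 0.16, or by 0.25 without cow 4. Its week 0 value in cow 2, 0.91, was far above the -0.40 to -0.23 of the other cows. Genes of epithelial differentiation and the cornified layer split evenly, with 8 higher and 8 lower (64.5% and 35.5% of all genes). At an unadjusted p under 0.05 none was higher and 2 were lower (5.07% and 2.95% of all genes), and the median was 0.01. Without the 3 arrays that stood apart 13 were higher and 3 lower. DMKN, dermokine, was lower, at -0.63 ± 0.19, and LYPD3, a surface protein of squamous epithelium, by -0.25 ± 0.09.

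Cholesterol is made from acetyl-CoA by way of mevalonate and squalene. Of 16 measured genes, 15 had a lower mean at week 3, 13 were lower in all 4 cows, and 10 had an unadjusted p under 0.05, against 35.5%, 6.34% and 2.95% of all genes. In 6 of the 16 the week 3 arrays all lay below the week 0 arrays, against 1.1% of all genes. The median difference was -0.44, with -0.20, -0.51, -0.87 and -0.13 in the 4 cows. It was -0.42 without the 3 arrays that stood apart, with 13 of 16 lower. The genes of this pathway were chosen because earlier results on these samples pointed to it, so its direction is not independent evidence. The other lists were also chosen with earlier results known.

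HMGCS1, the synthase at the entry of the pathway, was -0.68, -0.18, 1.46 and 0.62 at week 0 and -1.15, -1.32, -0.83 and -1.19 at week 3. The week 3 arrays were alike and all below week 0, so the within-cow differences of -0.47, -1.14, -2.29 and -1.81 followed mostly from where each cow began. The mean was -1.43 ± 0.51 (2.69-fold lower, limma adjusted p = 0.688), with -2.05 over cows 3 and 4. At week 1 it stood 2.07 above week 0, the opposite direction, and this wide range enters the SE. A second HMGCS1 probe set differed by -0.87 ± 0.18.

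In the steps that follow, MVK, mevalonate kinase, differed by -0.45 ± 0.16, although 2 of its 3 probe sets stood at 0.02 and 0.01. It was -0.29 without cow 3. FDPS, farnesyl diphosphate synthase, differed by -0.67 ± 0.23. FDFT1, squalene synthase and the first step committed to sterols, read -0.28, 0.21, 0.03 and 0.22 at week 0 and -0.73, -1.17, -0.88 and -0.80 at week 3. It had no overlap and a mean of -0.94 ± 0.20 (1.92-fold lower, limma adjusted p = 0.367), and its other probe sets stood at -0.55 and 0.03.

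Among the enzymes from squalene to cholesterol, SQLE, squalene epoxidase, differed by -0.42 ± 0.11, CYP51A1, which removes a methyl group from lanosterol, by -0.53 ± 0.17 (-0.31 without cow 3), NSDHL by -0.42 ± 0.14, MSMO1 by -0.45 ± 0.17 and DHCR7, the last reductase, by -0.53 ± 0.16. LSS, which closes the sterol rings, differed by -0.81 ± 0.33, with its other probe sets at -0.58 and 0.01. ACAT2, at the very start, stood at -0.22 ± 0.16 and was higher in cow 1. It was -0.35 without cow 1 and -0.08 without cow 3.

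**Figure D3:**
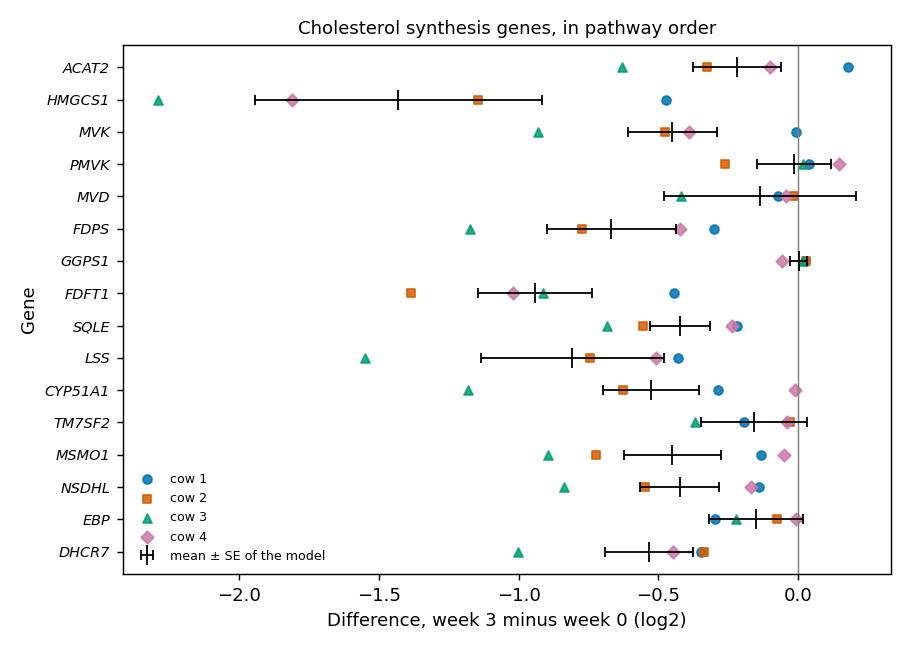
Within-cow difference, week 3 minus week 0 (log2), of the 16 measured cholesterol synthesis genes in pathway order from top to bottom, with a point per cow and the mean ± SE of the model in black. Cow 3 has the lowest value in most rows, and HMGCS1 and FDFT1 have the largest mean differences.

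Sterol regulation and uptake was mixed, with 6 of 13 genes higher and 7 lower (64.5% and 35.5% of all genes). The median was -0.04, which became 0.01 without cow 2 or without cow 3. SREBF2, the transcription factor that drives sterol genes, stood at -0.28 ± 0.12 with a second probe set at 0.01, INSIG1, which retains it in the endoplasmic reticulum, at -0.34 ± 0.09 and MYLIP, a ubiquitin ligase, at -0.29 ± 0.06. SOAT1, which esterifies cholesterol for storage, was higher by 0.74 ± 0.23, and NPC2, a lysosomal cholesterol carrier, by 0.18 ± 0.07 (0.09 without cow 2).

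Fatty acid and triglyceride synthesis split 8 to 8 (64.5% higher and 35.5% lower among all genes), or 4 higher to 12 lower with quantile normalization. At an unadjusted p under 0.05, 3 were lower and none higher (2.95% and 5.07% of all genes). SCD, the delta-9 desaturase, was lower, at -0.89 ± 0.31 (-0.55 without cow 3), and its week 0 value in cow 3, 0.85, stood above the others. FASN, fatty acid synthase, differed by -0.39 ± 0.15, ELOVL5 by -0.42 ± 0.17 and ELOVL6 by -0.31 ± 0.16, both elongases. Cow 3 had the lowest difference in each of the 3 (-0.89, -0.94 and -0.88), and without it they stood at -0.22, -0.25 and -0.11. Of 28 genes of fatty acid activation and oxidation 21 were lower and 7 higher (35.5% and 64.5% of all genes). But without cow 2 the split was 15 to 13 and without the 3 arrays 18 to 10. ACSL1, which activates long chain fatty acids, differed by -0.98, -1.35, -1.68 and -0.31 in the 4 cows, with no overlap of the groups and a mean of -1.08 ± 0.28. HADHA and ACAA1, enzymes of beta-oxidation, stood at -0.20 ± 0.08 and -0.12 ± 0.05, and ACADM at 0.13 ± 0.05. BDH1, which makes the ketone body beta-hydroxybutyrate, stood at -0.15 ± 0.09, with -0.50 in cow 2 and a mean of -0.04 without that cow.

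Transport of short chain fatty acids, acid and nutrients held 11 genes with a higher and 5 with a lower mean. That split was near the 64.5% and 35.5% of all genes. At an unadjusted p under 0.05 there were 2 and 2 (5.07% and 2.95% of all genes). The median was 0.04, or 0.01 without cow 3 and 0.02 without cow 4, and with quantile normalization 9 were higher and 7 lower. SLC4A7, a sodium bicarbonate cotransporter that regulates cell pH, was 0.15, 0.05, 0.48 and -0.10 at week 0 and -0.33, -0.22, -0.05 and -0.71 at week 3. The steps were small and alike in the 4 cows, with a mean of -0.47 ± 0.06 (limma adjusted p = 0.158), and week 1 stood at -0.05. CA4, a carbonic anhydrase, differed by -0.33 ± 0.12, or by -0.18 without cow 4.

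ATP1B1, the beta chain of the sodium pump, was higher by 0.52 ± 0.15, and SLC9A3, a sodium/proton exchanger, by 0.36 ± 0.11 (0.21 without cow 4), with its other probe sets at 0.01 and -0.01. SLC16A1, the monocarboxylate transporter MCT1, stood at 0.04 ± 0.11, and its sign changed when cow 3 or cow 4 was left out (-0.01 and -0.03).

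In growth factor signalling the insulin-like growth factor binding proteins went different ways. Of 14 genes of the IGF system, 8 were higher and 6 lower (64.5% and 35.5% of all genes), or 7 and 7 with quantile normalization. At an unadjusted p under 0.05 there were 1 and 2 (5.07% and 2.95% of all genes). IGFBP6 was 0.38, 0.41, 1.59 and 1.65 at week 0 and -0.62, -0.45, -0.07 and -0.60 at week 3, without overlap, for a mean of -1.44 ± 0.29 (2.72-fold lower, limma adjusted p = 0.322). IGFBP5 read -0.85, -0.27, -1.49 and -1.06 at week 0 and 0.21, -0.03, 0.06 and 0.32 at week 3, without overlap in the opposite direction. Its mean was 1.06 ± 0.22 (limma adjusted p = 0.337). IGFBP3 was lower, at -1.18 ± 0.38, and by -1.81 at week 1.

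Of 18 EGF, TGF-beta and BMP genes 11 were higher and 7 lower, near the 64.5% and 35.5% of all genes. The split was 8 and 10 with quantile normalization. At an unadjusted p under 0.05 there were 2 and 1 (5.07% and 2.95% of all genes). ERBB3, a receptor of the EGF receptor family, was higher by 0.71 ± 0.17, with a second probe set at 0.01. ID1, a target of BMP signalling that holds back differentiation factors, was lower, at -0.68 ± 0.10 (limma adjusted p = 0.168), while its other probe set stood at 0.02. NTRK2, the receptor of brain-derived neurotrophic factor, differed by -0.65, -1.24, -2.01 and -2.04, a mean of -1.49 ± 0.29 without overlap. CISH, an inhibitor of cytokine receptor signalling, was -0.52, -0.31, -0.01 and -0.39 at week 0 and 0.01, 0.51, 0.53 and 0.31 at week 3. All week 3 arrays lay above week 0, though cow 3 at week 0 was just below cow 1 at week 3, and the mean was 0.64 ± 0.08 (limma adjusted p = 0.158). THRA, the thyroid hormone receptor alpha, was higher by 0.49 ± 0.07 without overlap.

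Stress and antioxidant genes included a strong difference in heme oxygenase. HMOX1, which degrades heme, read -1.94, -1.44, -0.68 and -1.73 at week 0 and 0.16, 1.15, 0.28 and -0.16 at week 3. The groups were fully apart, with a mean of 1.80 ± 0.35 (3.49-fold higher, limma adjusted p = 0.322). SOD2, the mitochondrial superoxide dismutase, was -0.08, 0.01, -0.13 and -0.19 at week 0 and 0.32, 0.28, 0.24 and 0.13 at week 3. That is a smaller step of 0.34 ± 0.04 with as little overlap (limma adjusted p = 0.158). MT2A, a metallothionein that binds zinc and copper, was lower, at -0.67 ± 0.14 without overlap and NQO1, a quinone reductase, by -0.43 ± 0.15 (-0.28 without cow 3). Over the 24 genes of the list 15 were higher and 9 lower, a split near the 64.5% and 35.5% of all genes. At an unadjusted p under 0.05 there were 3 and 3 (5.07% and 2.95% of all genes).

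Lists of basic cell machinery depended on cow 2. Respiratory chain and ATP synthase genes had a lower mean in 52 of 62 cases, against 35.5% of all genes. Their cow medians were -0.02, -0.36, 0.02 and 0.18. Without cow 2 the split turned to 52 higher and 10 lower, and without the 3 arrays that stood apart to 55 and 7. Cytosolic ribosome genes were lower in 51 of 62 cases, with cow medians of -0.02, -0.27, 0.09 and 0.06, and turned to 59 higher and 3 lower without cow 2 and to 58 and 4 without the 3 arrays. Proteasome genes were lower in 17 of 26 cases and higher in 16 without cow 2 and in 21 without the 3 arrays. Across these 3 lists only 1 gene, of the ribosome, had an unadjusted p under 0.05 (5.07% of all genes higher, 2.95% lower). Cow 2 also had the largest difference in hybridization controls, -0.78, and in the 3' against 5' ends of control transcripts, 0.24 (the other cows were between -0.05 and 0.08), and the part of either was not tested.

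**Figure D4:**
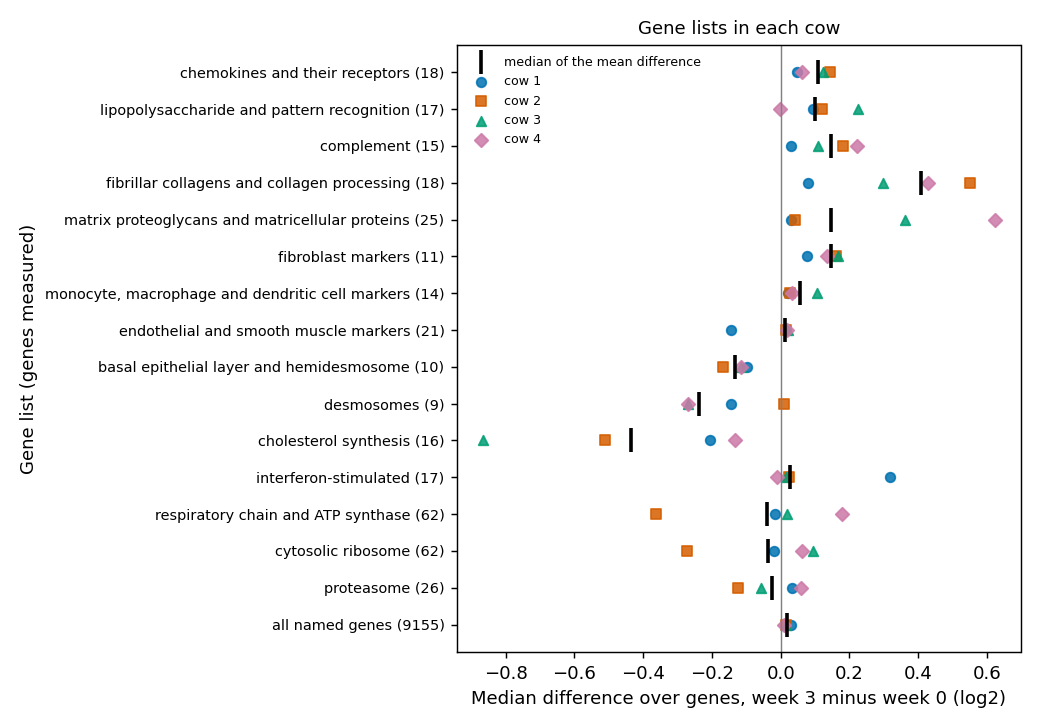
Median difference over the measured genes of a list, week 3 minus week 0 (log2), in each cow (coloured points), with the median of the mean differences as a black bar and the number of genes in brackets. Cow 2 lies to the left of the other cows for the respiratory chain, ribosome and proteasome, and cow 1 lies to the right of the others for interferon-stimulated genes.

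Cell cycle genes were higher in 24 of 35 cases and lower in 11, a share near the 64.5% of all genes. At an unadjusted p under 0.05, 4 were higher and 2 lower (5.07% and 2.95% of all genes). The cow medians were 0.24, 0.32, -0.05 and 0.06. CDK1, the kinase that drives entry into mitosis, was higher by 0.66 ± 0.16 with no overlap. CDK2, which acts at the start of DNA synthesis, differed by 0.46 ± 0.15 and BUB1, a spindle checkpoint kinase, by 0.42 ± 0.14, with a second probe set at 0.04. The cell cycle inhibitor CDKN1A was lower, at -0.30 ± 0.09.

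By their median, interferon-stimulated genes differed in cow 1 and little elsewhere, although MX1 was also higher in cows 2 and 3. Of 17 genes 13 were higher and 4 lower (64.5% and 35.5% of all genes), or 10 and 7 with quantile normalization. None had an unadjusted p under 0.05 (5.07% of all genes higher, 2.95% lower). The cow medians were 0.32, 0.02, 0.02 and -0.01. USP18, which removes the ubiquitin-like ISG15 from proteins, was 3.10 in cow 1 at week 3 and between -0.05 and 0.05 in the other cows. Cow 1 had read 0.01 at week 0 and 1.73 at week 1. The other USP18 probe sets differed by 1.92, 1.84 and 0.94 in cow 1 and by -0.65 to 0.58 in the other cows. MX1, an antiviral GTPase, moved from 0.87 to 3.27 in cow 1, from -0.02 to 0.87 in cow 2, from -1.83 to -1.09 in cow 3 and from 0.18 to 0.13 in cow 4. ISG15 was high in cow 1 at each week, at 6.50, 4.53 and 7.83 in weeks 0, 1 and 3, against -0.25 to 0.91 in weeks 0 and 3 of the other cows. RSAD2, an antiviral enzyme, reached 2.49 in cow 1 at week 3 and -0.03 to 0.01 in the others. ISG15 and RSAD2 were named after their values were seen.

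The remaining genes with the lowest p or the largest difference belong to none of these groups. ARHGAP10, a GTPase-activating protein, was lower, at -0.72 ± 0.09 without overlap, and by -0.91 at week 1. CAPN2, a calcium-dependent protease, differed by -0.48 ± 0.08, EIF2B2, a subunit of a translation initiation factor, by -0.33 ± 0.06 and RRP36, which acts in ribosomal RNA processing, by -0.20 ± 0.03. MTPN, myotrophin, differed by -1.27 ± 0.41 and KMT2E, a chromatin protein, by -1.21 ± 0.41 (-0.80 without cow 3), with its other probe sets at 0.07 and -0.44.

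Among the higher genes were SPATS2L at 0.87 ± 0.12 and ABHD4, a lipase of phospholipid metabolism, at 0.63 ± 0.09. TGM2, the tissue transglutaminase that crosslinks matrix proteins, was 0.07, -0.86, -1.15 and -3.54 at week 0 and 0.62, -0.07, 0.69 and -0.09 at week 3. Cow 4 started far below the others and ended among them, and the mean was 1.66 ± 0.43, or 1.06 without cow 4. KNG1, the kinin precursor kininogen, was higher by 1.54 ± 0.42 without overlap, with 2.96 in cow 2 and 0.77 to 1.37 in the others and a second probe set at 0.02.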

How the data were processed

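RNA from rumen papillae was labelled and hybridised to Affymetrix bovine arrays, from 10 µg of total RNA per sample per the labels' protocols. The deposited values are log2 values made by the authors with GCRMA, per the submitters' processing notes (version: not given in the sources used here). Their log base is unstated. Base 2 was assumed, since the largest spread of a probe set over the arrays, 11.2, would otherwise, on the natural log scale, mean a 74399-fold range. Each probe set has a median of 0 over the 12 arrays, so no level filter was possible and a filter on SD was used as an alternative. The series holds 24128 probe sets, of which 112 AFFX controls were left out.

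All 24016 others were fitted with limma 3.58.1 in R 4.3.3 (lmFit and eBayes, two-sided) over 12 arrays, with a mean per week and the cow as a block, and Benjamini-Hochberg adjustment ran over all of them. The block follows from the labels, which give the same 4 cows at each week. Deviations from the weekly means of weeks 0 and 3 correlated at 0.452 to 0.690 within a cow and at -0.435 to -0.0438 between cows. Subtracting the mean of the 4 cows itself pulls the between-cow values below 0, so their sign is not evidence for the block. Replicates are separate animals, and their number limits the precision.

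Probe sets naming several genes (86) or none (10638) name no gene here. Symbols came from the array's annotation, updated by gene ID through the ARS-UCD2.0 gene table (13263 of 13292 matched). A gene is represented by its probe set of largest SD over the 12 arrays. Of 984 genes in 40 lists, 758 were measured. Lists are described by counts and medians, with no list test. In each direction, the 10 genes of lowest p among those with the same direction in 4 of 4 cows were named. Named as well were the 8 of largest difference among such genes at an unadjusted p under 0.05. Up to 4 members of lowest p of each list described and a fixed set of genes were added. ISG15 and RSAD2 are said to be named after their values were seen. NSDHL, MVK, MSMO1, LSS, ACAT2, SREBF2 and DCN also fall outside this rule and were named with the results at hand. The comparison, the lists and the rule were chosen with earlier results of these data known. The steps were tested on simulated data. Alternatives were the fit without the block, 8 arrays alone, centring, quantile normalization, the SD filter, array weights, leaving out the 3 arrays that stood apart in hybridization controls, a robust prior, leaving out each cow or array, and the mean of a gene's probe sets.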

Additional observations from a re-analysis of the deposited data

Results flagged for a closer look

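In 21 of 270 groups of 4 values examined, 1 cow lay far from the other 3 by Dixon's criterion, where chance marks about 1 in 20 groups. Interferon-stimulated genes set cow 1 apart. USP18 was 3.10 and RSAD2 2.49 in week 3 of cow 1, ISG15 was 6.50 in its week 0 and 7.83 in its week 3, and the median difference of the interferon list was 0.32 in that cow against -0.01 to 0.02 in the others.

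Cow 2 stood apart at week 0 for EDN1 (-1.26), NFKBIZ (-0.19), COL1A2 (-0.78), CCL19 (0.52), CLDN7 (0.91) and MT2A (0.66), and at week 3 for EDN1 (-2.94) and POSTN (-0.34). Week 0 of cow 2 is 1 of the 3 arrays that stood apart in hybridization controls.

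Cow 3 stood apart for SCD at week 0 (0.85) and DES at week 3 (0.085), and in the median differences of sterol regulation and uptake (-0.13) and of monocyte, macrophage and dendritic cell markers (0.11). Cow 4 stood apart for CXCL5 at week 0 (-1.29) and for DHCR7 (0.11) and HADHA (-0.21) at week 3. The median difference of endothelial and smooth muscle markers was -0.14 in cow 1 and 0.02 in each of the others.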

How the results depend on the processing

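The count of probe sets at an adjusted p under 0.05 in limma was 0 with the cow as a block and 0 with no term for the cow, with centred arrays, with a robust prior, with 8 arrays alone, without the 3 arrays that stood apart, and without any 1 cow or array. It was 4 with quantile normalization, 18 without the 40% of probe sets of lowest SD (11 of them named, 7 higher and 4 lower) and 305 with array weights (196 higher), a fit whose weights stopped before the convergence tolerance. The 11 named genes were DSG1, EDN1, CXCL5, BPIFA2A, DEFB4A, COL3A1, COL1A2, VCAN, CDH13, ARHGAP10 and SPATS2L. With 8 arrays alone the lowest adjusted p in limma, that of CXCL2, was 0.05004, just beyond the threshold. At an unadjusted p under 0.05 the count was 1469 in the main analysis, 933 without the replicate block, 3210 with 8 arrays alone, 4052 with array weights, and 1032 to 1452 when 1 cow or array was left out. Over 115 genes and 2332 alternatives, 8 values of 2 genes changed sign. With 1 cow or array left out, SLC16A1 ranged from -0.059 to 0.17 and ISG15 from -0.27 to 0.53. ISG15 was -0.15 with quantile normalization. The cause was not tested. Of 320 list medians under alternatives, 35 moved by more than the SD between cows. The number of arrays, and values without a level, limit what can be said of genes with small differences.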

Other observations

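The 9 lists not described above had median differences between -0.09 and 0.16. They held 0 to 2 genes higher and 0 to 3 lower at an unadjusted p under 0.05. Among all genes 64.5% were higher and 35.5% lower, with 5.07% and 2.95% at that p. Heat shock proteins and chaperonins were lower in 18 of 24 cases, with cow medians of 0.01, -0.18, -0.22 and -0.01 and a median of -0.09 that was -0.06 without cow 2 or cow 3. Ribosome biogenesis genes were lower in 16 of 22 cases, with a median of -0.08 and cow medians of 0.03, -0.20, -0.01 and -0.07. Without cow 2 the split was 12 lower to 10 higher, with a median of -0.02. Glycolysis and lactate genes were lower in 12 of 18 cases, and tricarboxylic acid cycle genes in 12 of 17, with medians of -0.06 and -0.04. Without cow 3 the glycolysis median was -0.01, and without cow 2 the cycle genes were higher in 11 cases and lower in 6.

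Apoptosis genes were higher in 14 of 16 cases, against 64.5% of all genes, with a median of 0.10, but 0.04 without cow 1. With quantile normalization 10 of the 16 were higher. Hypoxia response genes had a median of 0.16 over 10 genes, of which 6 were higher and 4 lower, and of 0.10 without cow 2 and 0.03 without the 3 arrays that stood apart. Genes of the MHC and antigen presentation split 10 to 8, with a median of 0.02 at week 3 (-0.02 without cow 2) and of -0.33 at week 1. Those of the unfolded protein response split 7 to 7. The hypoxia, MHC and unfolded protein response lists thus held a smaller share of higher genes than the 64.5% of all genes. The 3 measured ketone body genes were all lower on average, yet they stood at -0.38 in cow 2 and at 0.07 in cows 3 and 4 by their medians, and without cow 2, 2 were higher and 1 lower.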
